A study of Mus musculus with 4 samples.

Results

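A set of 32 genes that carry glucose into the cell, break it down to pyruvate and decide what becomes of that pyruvate was followed in single cells of the Tbx1 lineage of the mouse embryo. They were chosen by symbol, and all 32 were found among the 32285 genes of the count tables. The set holds 2 glucose transporters (Slc2a1, Slc2a3), the enzymes of the glycolytic chain from hexokinase to pyruvate kinase (Hk1, Hk2, Gpi1, Pfkl, Pfkm, Pfkp, Aldoa, Aldoc, Tpi1, Gapdh, Pgk1, Pgam1, Eno1, Eno2, Eno3, Pkm), 3 bifunctional regulators of that chain (Pfkfb2, Pfkfb3, Pfkfb4), the lactate dehydrogenases and lactate carriers (Ldha, Ldhb, Slc16a1, Slc16a3), the genes at the entry to the mitochondrion (Mpc1, Mpc2, Pdha1, Pdk1, Pdk2, Pdk3) and Bnip3, a mitochondrial protein of mitophagy that is known as a target of hypoxia signalling. The symbol Aldoa had a second identifier, ENSMUSG00000114515, with a mean of 0.594 CPM over all cells, which was left out.

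Glycolysis takes glucose to pyruvate in the cytosol. Pyruvate is then either reduced to lactate by lactate dehydrogenase and exported, or carried into the mitochondrion by the Mpc1 and Mpc2 carrier and oxidised by pyruvate dehydrogenase, which the Pdk kinases switch off. Most steps exist as isozymes from separate genes, and the isozyme in use is known to differ between tissues, with Eno3 as the muscle enolase, Eno2 as the neuronal enolase and Ldhb as the heart form of lactate dehydrogenase. Many of these genes are known targets of the hypoxia-inducible factors, whose pathway is active in the early embryo.

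The study asked what loss of Kmt2d, a histone H3K4 methyltransferase gene, changes in cells that have expressed Tbx1. GFP-positive cells of the pharyngeal region and heart were sorted at E9.5 from embryos pooled by genotype. The labels give their strain as outbred SwissWebster, and the study's methods describe its mice as kept on a mix of C57BL/6 and Swiss Webster. The cHet embryos were Tbx1Cre/+;Kmt2d F/+;GFP F/+ and the cKO embryos were Tbx1Cre/+;Kmt2d F/F;GFP F/+. Both genotypes therefore carried the Tbx1Cre allele, the GFP reporter and at least 1 floxed Kmt2d allele, so there was no group with full Kmt2d, and Cre acted only where Tbx1 had been on. Per the study, the Tbx1Cre knock-in also makes its carriers Tbx1 heterozygotes, so neither group had full Tbx1 either. Each genotype had 2 libraries, named Rep1 (4 embryos per pool, Next GEM v3.1 kit) and Rep2 (3 embryos per pool, GEM-X v4 kit), so the replicate was also the 10x kit, and embryos within a pool could not be told apart. The study's somite counts of the pools differed between the genotypes. In Rep1 the cKO range lay within the cHet range, and in Rep2 it began where the cHet range ended. The part of stage in the genotype values was not tested.

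The 4 libraries held 179454146 to 234726019 UMIs. The cHet Rep1 library stood apart in listing 37093 barcodes, against 9307 to 16775 in the others, but 6242 of them reached the study's minimum of 3000 genes. After removal of low-quality cells and doublets, 33448 cells were kept, 5869 to 11938 per library, with a median of 17240.5 to 22972 UMIs per cell. At most 87 barcodes were shared by any pair of libraries. Kmt2d itself was measured at 17.4 CPM in cHet Rep1, 15.3 in cKO Rep1, 23.9 in cHet Rep2 and 21.0 in cKO Rep2 over all kept cells, where CPM (counts per 1000000) is taken over all UMIs of the cells summed. It was lower in cKO within each replicate, but the difference did not pass the test (log2 fold change -0.16, SE 0.07, edgeR adjusted p = 0.956). These reads come from the 3′ ends of transcripts and so do not check the deletion itself. In the study, RT-qPCR at E9.5 found Kmt2d significantly depleted in cKO against Tbx1Cre/+ embryos, a group that is not among these libraries.

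Cells were clustered without the members, and clusters were named by marker genes. There were 8 named types with at least 20 cells in every library: epithelium-like (2348 cells, of which 1103 were pharyngeal ectoderm-like, 652 pharyngeal endoderm-like and 593 otic vesicle-like), endothelium-like (1914), anterior second heart field-like (aSHF-like, 1897), posterior second heart field-like (pSHF-like, 1614), cardiac muscle-like (441), branchiomeric muscle-like (BrM-like, 3337), neuronal-like (630) and multilineage progenitor-like (MLP-like, 3176). The pSHF-like cells include a cluster of 119 cells with 5 of the pSHF markers whose leading genes, such as Wt1, Upk3b and Lhx9, are also known from the proepicardium and to which no further rule was applied. They also include a cluster of 426 cells that had 6 of the 7 pSHF markers and 6 of the 7 cardiac muscle markers (Tnnt2, Actc1, Myl4, Myl7, Ttn and Nkx2-5). This tie was settled by the mean log2 fold of the markers over the other cells, which was larger for pSHF, and Wnt2, Gata4, Tbx5 and Osr1 but none of the cardiac markers were among its 10 leading genes. The pSHF-like values that follow include cells with heart muscle transcripts, and the aSHF-like cluster had the cardiac muscle markers Ttn and Nkx2-5. When the members were allowed in clustering, 79.49% of aSHF-like and 84.82% of pSHF-like cells kept their type, against 98.3% to 100.0% in the other named types. The cardiac muscle-like cluster then held 644 cells. The cardiac muscle-like cluster was led by Myl7, Actc1, Myl3, Myl4, Myh7 and Tnnt2 and held all 7 of its fixed markers. The other 17974 cells were left unnamed, and 117 neural crest-like cells were too few to compare, with 12 in cHet Rep2. The unnamed cells include 3 clusters in which at least 3 markers of a list were found. A cluster of 1191 cells had fewer than 50% of the mesenchyme markers. Clusters of 329 cells (103, 162, 32 and 32 in the order given next) and 35 cells (30, 3, 0 and 2) had all neuronal and all cardiac markers, respectively, but were held back by a rule set after the clusters were seen, because Hes5, Rfx4 and Fabp7 were among the 10 leading genes of the first and Myog and Myf6 among those of the second. The cardiac muscle-like cells numbered 88 in cHet and 31 in cKO of Rep1, and 154 in cHet and 168 in cKO of Rep2, and every set of 4 values here follows this order.

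Promoter sequence is shown for 5 members whose levels the results turn on, to show the motif content of the members, which the choice by symbol did not use. RefSeq (GRCm38.p6) gave 48 windows of 250 bases ending at an annotated start for 31 of the 32 members, all but Slc2a3. Each window is printed 5′ to 3′ along its gene. Capitals mark the core of the hypoxia response element (ACGTG or GCGTG, read as CACGT or CACGC on the other strand), the E-box (CACGTG) and the GC box (GGGCGG, read as CCGCCC on the other strand).
Eno3, chr11:70656926-70657175, plus strand: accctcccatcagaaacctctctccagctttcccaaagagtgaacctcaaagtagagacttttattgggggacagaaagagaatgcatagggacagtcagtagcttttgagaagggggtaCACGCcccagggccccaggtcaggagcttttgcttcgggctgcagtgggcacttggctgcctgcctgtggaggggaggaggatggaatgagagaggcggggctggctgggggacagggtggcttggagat
Pfkp, chr13:6648772-6649021, minus strand: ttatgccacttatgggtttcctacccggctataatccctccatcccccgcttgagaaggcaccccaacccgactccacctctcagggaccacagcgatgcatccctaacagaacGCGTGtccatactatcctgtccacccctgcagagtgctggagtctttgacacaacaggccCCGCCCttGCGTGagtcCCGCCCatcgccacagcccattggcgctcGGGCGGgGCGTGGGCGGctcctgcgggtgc
Ldhb, chr6:142507958-142508207, minus strand: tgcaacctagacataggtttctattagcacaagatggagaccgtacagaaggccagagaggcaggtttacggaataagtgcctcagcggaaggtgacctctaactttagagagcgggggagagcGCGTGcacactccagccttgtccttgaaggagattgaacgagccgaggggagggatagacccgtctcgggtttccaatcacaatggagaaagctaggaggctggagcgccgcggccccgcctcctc
Slc16a3, chr11:120948817-120949066, plus strand: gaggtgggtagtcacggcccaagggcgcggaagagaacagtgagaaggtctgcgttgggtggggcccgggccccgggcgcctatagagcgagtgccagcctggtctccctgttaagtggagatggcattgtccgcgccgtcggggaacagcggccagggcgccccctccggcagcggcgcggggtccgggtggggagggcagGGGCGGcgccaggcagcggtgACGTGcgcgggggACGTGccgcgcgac
Bnip3, chr7:138909507-138909756, minus strand: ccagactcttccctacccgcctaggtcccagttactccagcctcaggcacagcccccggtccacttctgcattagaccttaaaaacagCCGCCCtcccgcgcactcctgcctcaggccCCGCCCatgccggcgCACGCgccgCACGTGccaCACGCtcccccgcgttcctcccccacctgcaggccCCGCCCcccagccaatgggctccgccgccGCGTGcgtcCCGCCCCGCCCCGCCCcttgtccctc

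The hypoxia response core occurred in the windows of 28 of these 31 genes (90.3%), against 41.5% of all 27025 genes with a window. Counted by window, the shares were 79.2% of 48 and 38.6% of 32851. The core overlaps the E-box CACGTG, and with matches inside an E-box set aside it remained in 75.0% of member windows against 35.4% of all windows. The E-box itself was in 14.6% against 6.02%, and the GC box in 52.1% against 32.7%. All of these motifs are rich in G and C, and so were the member windows, with a median GC content of 61.6% against 52.4%. Eno2, Gpi1 and Tpi1 had no hypoxia response core in their windows, and Eno3 and Ldhb had a single one each. Bnip3 had 5, counting its E-box, which reads as a core on both strands, once per strand. A match is only a run of letters, and no binding was measured here.

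Levels of the members across cell types were highest in cardiac muscle-like cells. Of the 8 named types, this was the one with the highest mean for 24 of the 32 members, and for 17 of them all 4 cardiac libraries lay above all libraries of every other type. Among the 27 members that reached 10 CPM in a type the latter number was 16. The same was true of 600 of all 10916 genes at that level (5.5%). Summed over the members, the cardiac muscle-like cells had 10820, 12500, 12410 and 12720 CPM. No other named type exceeded 8214 CPM in any library, so the cardiac values did not overlap with any other, and the lowest sum was 5941 CPM in BrM-like cells of cHet Rep1. Of the 27 members that reached 10 CPM in a type, BrM-like cells had the lowest mean for 10 and endothelium-like cells for 8, where they were lowest for 6.13% and 23.6% of all genes that did. Cardiac muscle-like cells had the highest mean for 21 of the 27 and for 17.2% of all such genes. UMIs were counted from the 3′ end and not divided by length, so a gene is compared here with itself in other cells.

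**Figure D1:**
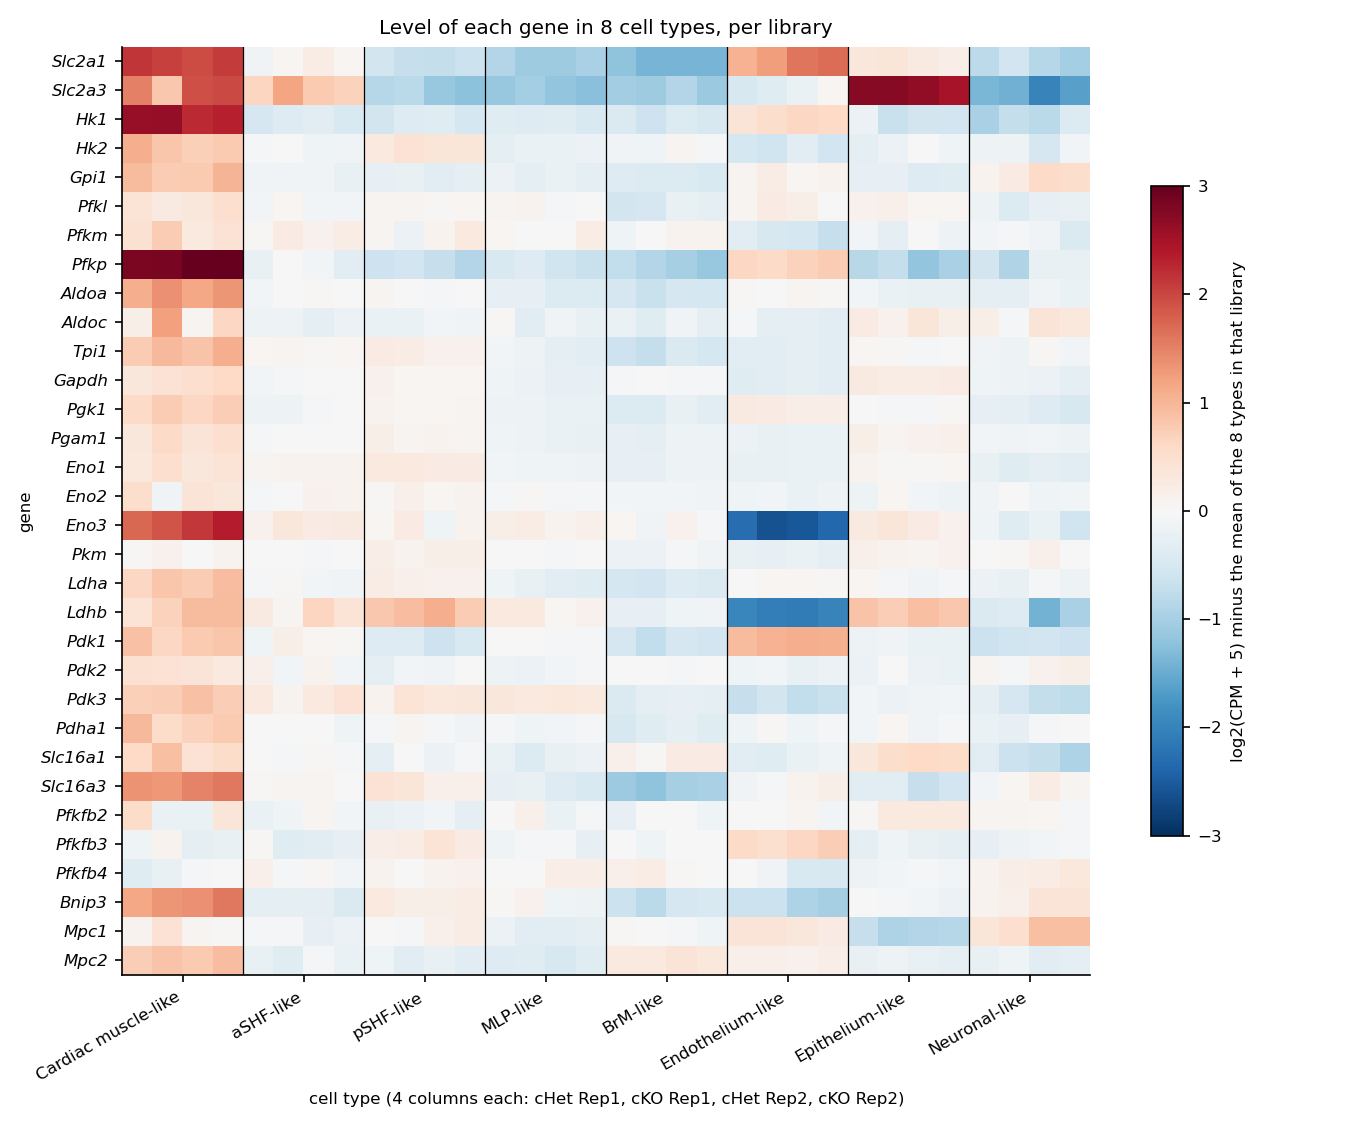
Level of each of the 32 members (lines) in the 8 named types (4 columns each, 1 per library), coloured by log2(CPM + 5) minus the mean of the 8 types in the same library. The mean is highest in cardiac muscle-like cells for 24 of the 32 genes, while Slc2a3 is highest in epithelium-like cells.

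Among the glucose transporters, Slc2a1 (GLUT1, the widely used transporter of embryonic tissue, chr4:119108711-119137983, plus strand) was highest in cardiac muscle-like cells, at 250.4, 297, 390.1 and 421 CPM, and next in endothelium-like cells, at 115, 168, 305 and 311 CPM. Cardiac was above endothelium within each library, although their ranges overlapped because both Rep2 libraries were higher than both Rep1 libraries in each type. BrM-like cells had the least, at 19.9 to 33.7 CPM. Slc2a3 (GLUT3, a high-affinity transporter known from neurons and the trophoblast, chr6:122727809-122801640, minus strand) followed another order. It was highest in epithelium-like cells, at 167, 149, 209 and 182 CPM, above every other type in every library, and lowest in neuronal-like cells, at 5.05, 3.63, 3.45 and 5.84 CPM, below every other type. Within the epithelium it was carried by the pharyngeal ectoderm-like cells (333.5 ± 62.5 CPM, SD, n = 4 libraries), with 84.9 ± 32.4 in endoderm-like and 21.0 ± 1.92 in otic vesicle-like cells, and the 4 ectoderm libraries did not overlap with the others. Of the UMIs of both transporters, Slc2a3 made up 73.7 ± 2.83% in ectoderm-like cells and 8.58 ± 1.59% in endothelium-like cells.

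At the committed steps, the cardiac muscle-like cells held isozymes that most other types had at low levels. Hexokinase adds the first phosphate to glucose, and Hk1 (chr10:62268855-62379908, minus strand) stood at 93.9, 104, 74.9 and 83.4 CPM in cardiac muscle-like cells, at 16.0 to 21.6 CPM in endothelium-like cells and at a mean of 5.42 to 7.96 CPM in the other 6 types. Each of these steps was wider than the spread of the libraries. Hk2 varied less, from a mean of 30.0 CPM in endothelium-like to 86.8 CPM in cardiac muscle-like cells, and without a gap between neighbouring types. Hk1 was therefore 51.4 ± 5.20% of hexokinase UMIs in cardiac muscle-like and 40.0 ± 7.03% in endothelium-like cells, against 11.4% to 17.7% elsewhere.

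Phosphofructokinase, the main control point of the chain, showed the same division. Pfkp (the platelet form, chr13:6579768-6648777, minus strand) was at 73.7, 72.7, 123 and 154 CPM in cardiac muscle-like cells, at 11.03 to 19.5 CPM in endothelium-like cells, and at a mean of 1.65 to 6.45 CPM in the other 6 types. The cardiac libraries were all above the endothelial ones, which in turn were all above the rest. Pfkp was 49.7 ± 9.21% of phosphofructokinase UMIs in cardiac muscle-like cells and 2.72 ± 0.864% in BrM-like cells, where Pfkl, the liver form, made up 80.2%. Pfkm, the muscle form, had a mean of 15.9 CPM or less in all types and was 7.88 ± 1.73% of the family in cardiac muscle-like cells. The regulators Pfkfb2 and Pfkfb4 were at or below a mean of 5.15 CPM in every type, and Pfkfb3 was highest in endothelium-like cells at 18.95 ± 6.87 CPM.

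**Figure D2:**
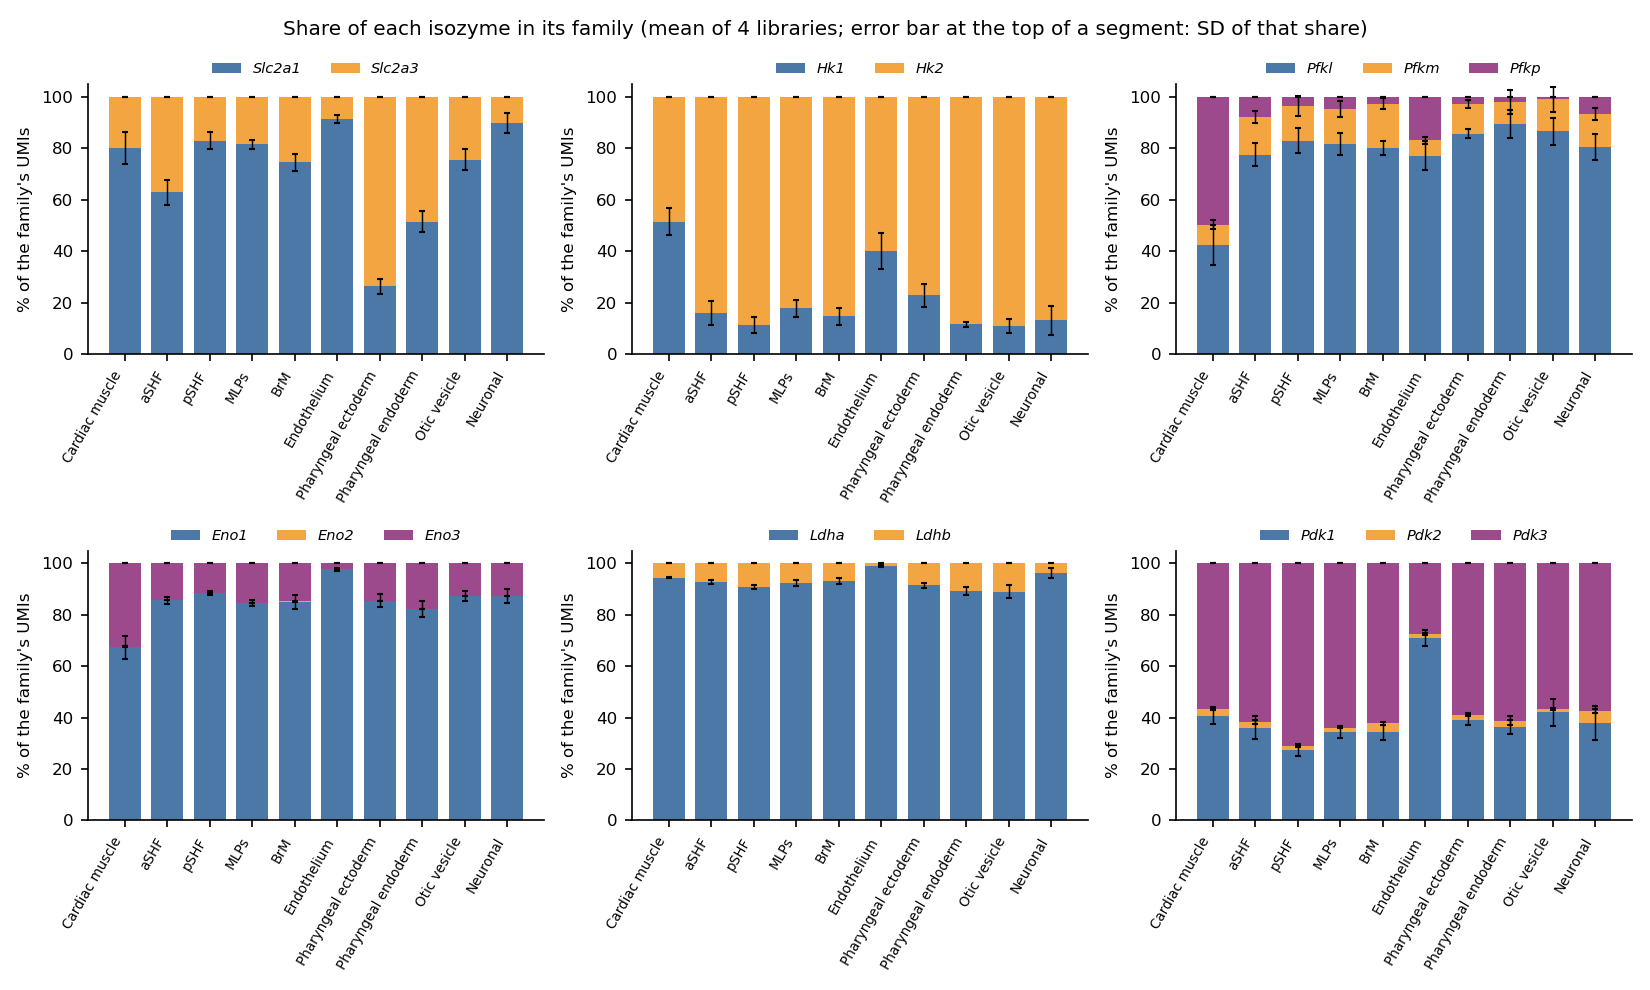
Share of each isozyme in the summed UMIs of its family (stacked bars, percent, mean of 4 libraries, with the SD of that share at the top of a segment) for 6 families in the named types, with the epithelium divided into its 3 kinds. Hk1 (51.4%), Pfkp (49.7%) and Eno3 (32.4%) have their largest shares in cardiac muscle-like cells, and Slc2a3 (73.7%) in pharyngeal ectoderm-like cells.

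Pgam1 (chr19:41911923-41918660, plus strand), Eno1 (chr4:150236721-150248879, plus strand) and Pkm (chr9:59656368-59679375, plus strand) had the smallest ratios between types of the members that reached 10 CPM. Pgam1 lay at 736, 965, 1104 and 1106 CPM in cardiac muscle-like cells and at 490, 530.0, 749 and 700.4 CPM in BrM-like cells, its lowest type. Eno1 lay at 641, 830.3, 597 and 643 CPM in cardiac muscle-like cells and at 446, 453, 391 and 383 CPM in neuronal-like cells. Pkm was highest in pSHF-like cells, at 884, 899, 725 and 709.6 CPM, and lowest in endothelium-like cells, at 657, 703, 561 and 520.1 CPM. For none of the 3 did a pair of neighbouring types separate without overlap. Aldoa, Tpi1, Gapdh and Pgk1 were each highest in cardiac muscle-like cells without overlap, with means of 1189, 694, 3016 and 746 CPM. Their lowest means were 342 and 242 CPM in BrM-like cells for Aldoa and Tpi1, 1720 CPM in endothelium-like cells for Gapdh and 364 CPM in neuronal-like cells for Pgk1. RefSeq names 15 pseudogenes for 7 members (Aldoa, Gapdh, Pgk1, Pgam1, Ldha, Ldhb and Mpc1), and Eno1b is a near copy of Eno1, so the counts of these genes could have been split between copies.

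Eno3 (chr11:70657202-70662513, plus strand), the enolase of muscle, had the largest ratio between its highest and lowest type of all members that reached 10 CPM (21.9 with 5 CPM added to both). Cardiac muscle-like cells had 296, 304, 353 and 339 CPM, and endothelium-like cells had 13.7, 8.69, 9.24 and 8.24 CPM. The 6 other named types lay between these with means of 60.9 to 92.5 CPM, and neither extreme overlapped with them. Eno3 was thus present well outside muscle at this stage, at 92.5 ± 16.6 CPM in epithelium-like cells and 85.8 ± 12.0 CPM in MLP-like cells. Its share of enolase UMIs was 32.4 ± 4.41% in cardiac muscle-like cells, 14.8 ± 2.70% in BrM-like cells and 2.22 ± 0.563% in endothelium-like cells. Eno2, the neuronal enolase, had a mean of 1.95 CPM or less in every named type, the neuronal-like cells included.

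**Figure D3:**
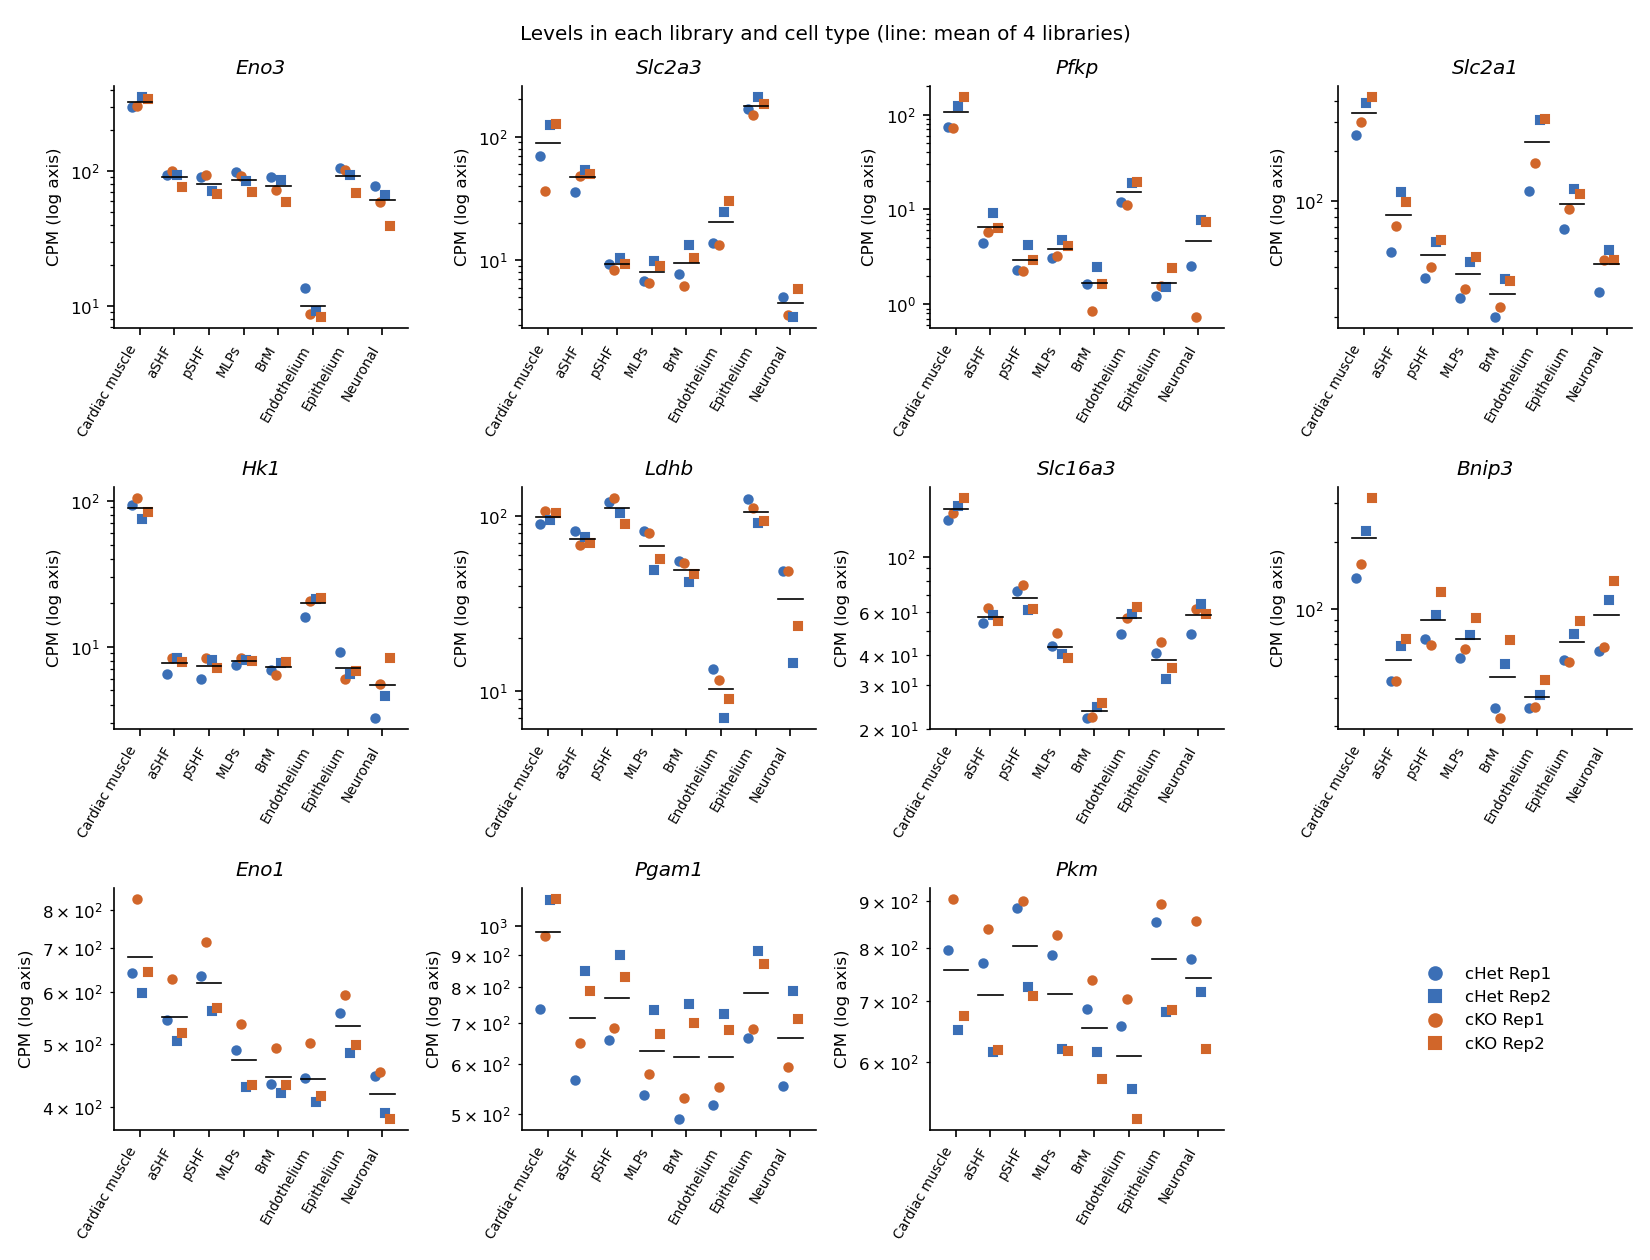
Level in CPM (vertical axis, log scale, its range set for each gene) of the 11 members named by the rule in the 8 named types; each point is a library, coloured by genotype and shaped by replicate, and the bar is the mean of 4 libraries. Eno3, Hk1 and Pfkp stand out in cardiac muscle-like cells and Slc2a3 in epithelium-like cells, while Pgam1, Eno1 and Pkm stay within a narrow range.

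Of the genes that handle pyruvate and lactate, Ldha was highest in cardiac muscle-like cells (1673 ± 131 CPM) and lowest in BrM-like cells (689 ± 56.8 CPM). Ldhb (chr6:142490249-142507957, minus strand) was highest in pSHF-like cells, at 120.0, 126, 104 and 90.3 CPM, which overlapped with epithelium-like cells (90.5 to 124 CPM) and cardiac muscle-like cells (90.2 to 107 CPM). It was lowest in endothelium-like cells, at 13.4, 11.6, 7.00 and 9.03 CPM, below all other types in every library. Ldha made up a mean of 90.05% of lactate dehydrogenase UMIs in epithelium-like cells, the lowest of the 8 named types (88.98% to 91.28% over the libraries), and 99.0% in endothelium-like cells. The lactate exporter Slc16a3 (MCT4, chr11:120948480-120960868, plus strand) was at 142, 151, 162 and 174 CPM in cardiac muscle-like cells and at 22.0, 22.4, 24.5 and 25.5 CPM in BrM-like cells, with no overlap between either of these types and the others. Slc16a1 (MCT1) was at 23.2 and 24.0 CPM in the Rep1 libraries and 61.2 and 59.7 CPM in the Rep2 libraries over all cells, where kit, pool and replicate cannot be told apart, and no neighbouring types separated in their ranges over the libraries.

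At the mitochondrial entry, Pdk1, a hypoxia-induced kinase, was highest in endothelium-like cells (79.3 ± 17.1 CPM) and made up 71.0 ± 2.93% of Pdk UMIs there. Pdk3 led the family in the other 7 types, with 56.6% to 70.9%, and was lowest in endothelium-like cells (30.3 ± 2.59 CPM). The carrier subunits differed from each other. Mpc1 was highest in neuronal-like cells (60.6 ± 14.1 CPM) and lowest in epithelium-like cells (17.8 ± 1.59 CPM), which lay below all other types, while Mpc2 and Pdha1 were highest in cardiac muscle-like cells, at means of 123 and 112 CPM. Bnip3 (chr7:138890836-138909519, minus strand) was also highest in cardiac muscle-like cells, at 138, 160, 225 and 316 CPM, above all other types, and lowest in endothelium-like cells, at 36.2 to 48.2 CPM. Aldoc, Pdk2, Pfkfb2, Pfkfb4 and Eno2 never reached a mean of 10 CPM, and their order across types rests on few UMIs.

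To ask whether the difference between 2 types held from library to library, pairs of types were compared over the 4 libraries. This used edgeR's quasi-likelihood test and Benjamini-Hochberg adjustment over all genes. The library was a block, so shifts shared by both types of a library were set aside, and types whose ranges overlap can still differ. Against the aSHF-like cells, a progenitor of heart muscle, the cardiac muscle-like cells were higher for 29 of 32 members and lower for 0. Of all 13276 genes tested, 27.4% were higher and 26.8% lower. The median log2 difference was 1.04 over the members and -0.02 over all genes. With scaling by library total alone these medians were 0.85 and -0.21, so the members stood about as far from the other genes, and 26 were called. The largest differences were in Pfkp (log2 4.24, SE 0.15, adjusted p = 2.53e-11), Hk1 (3.68, SE 0.12, adjusted p = 1.43e-11), Aldoc (2.93, SE 0.44, adjusted p = 6.48e-05), Slc2a1 (2.26, SE 0.09, adjusted p = 8.60e-11) and Eno3 (2.03, SE 0.10, adjusted p = 1.42e-09). The Aldoc difference rested on low levels, with means of 4.73 CPM in cardiac muscle-like and 0.613 CPM in aSHF-like cells. Pfkfb2, Pfkfb3 and Pfkfb4 did not pass. Pkm had the smallest difference called, 0.27 (SE 0.08, adjusted p = 0.00824), and was at 0.09 with an adjusted p of 0.264 under library total scaling. The 8 genes fixed as marks of dividing cells moved the other way, with 7 lower and 0 higher in cardiac muscle-like cells, and 6 of 9 immediate early genes were higher there. The part of either in the member differences was not tested.

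The other pairs were set against the MLP-like cells and were mixed in direction. Epithelium-like cells were higher for 15 and lower for 8 of 31 members tested, where 25.5% of all genes were higher and 28.2% lower. Slc2a3 led, with a log2 difference of 4.39 (SE 0.06, adjusted p = 1.47e-10), followed by Aldoc (1.69, SE 0.30, adjusted p = 0.00102) and Slc2a1 (1.35, SE 0.06, adjusted p = 7.39e-08), and Pfkp (-1.23, SE 0.20, adjusted p = 0.000743) and Mpc1 (-0.74, SE 0.06, adjusted p = 7.06e-06) were the lowest. Aldoc had low means of 2.47 and 0.734 CPM in epithelium-like and MLP-like cells, and Pfkp of 1.67 and 3.81 CPM. Endothelium-like cells were higher for 14 and lower for 8 of 31, where 34.6% and 36.4% of all genes were. There Slc2a1 (2.70, SE 0.10, adjusted p = 4.76e-09) and Pfkp (2.11, SE 0.12, adjusted p = 1.07e-07) were higher, and Eno3 (-3.001, SE 0.08, adjusted p = 4.82e-10) and Ldhb (-2.61, SE 0.06, adjusted p = 2.37e-10) were lower. Neuronal-like cells were higher for 4 and lower for 9 of 31, where 20.6% and 19.1% of all genes were. Mpc1 (1.05, SE 0.14, adjusted p = 0.00260) was higher and Ldhb (-1.08, SE 0.17, adjusted p = 0.00411) and Pdk3 (-0.97, SE 0.09, adjusted p = 0.000779) were lower. The 13 calls of this last pair, in either direction, fell to 7, 6 and 7 without cKO Rep1, cHet Rep2 and cKO Rep2, respectively. The members' median difference was 0.05 in epithelium-like, 0.11 in endothelium-like and 0.06 in neuronal-like cells, against -0.03 over all genes in each. Under library total scaling the endothelial median was 0.01 against -0.13, and Eno1, at 0.01 in that pair, became -0.09 (adjusted p = 0.0184).

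The comparison of cKO with cHet asked whether loss of Kmt2d changed these genes. Within each type and over all kept cells, UMIs were summed per library and fitted with the replicate as a block, 2 libraries against 2. In BrM-like cells 1 of 30 members tested was called, Eno3, which was lower in cKO, where 1.68% of all genes were called. Among the unnamed cells 1 of 32 was called, again Eno3 and again lower, where 0.569% of all genes were. No member was called in MLP-like (0 of 31, with 0.672% of all genes called), pSHF-like (0 of 30, 0.568%), cardiac muscle-like (0 of 30, 0.172%), neuronal-like (0 of 31, 0.0165%), aSHF-like (0 of 31, 0.0%), epithelium-like (0 of 31, 0.0%) or endothelium-like cells (0 of 30, 0.0%), nor over all kept cells (0 of 32, 0.0%). At an unadjusted p under 0.05 there were 4 members in MLP-like cells (6.41% of all genes), 2 in pSHF-like (6.93%), 6 in cardiac muscle-like (4.65%), 2 in neuronal-like (5.76%), 1 in aSHF-like (4.01%), 3 in epithelium-like (4.32%) and 2 in endothelium-like cells (4.01%), and 1 over all kept cells (5.66%). In BrM-like cells there was 1 (8.46% of all genes), and in the unnamed cells there were 5 (9.46%). DESeq2 called Eno3 in the unnamed cells and over all kept cells (adjusted p = 0.000476 and 0.00915), and no other member in any type. In the named types other than the cardiac muscle-like and neuronal-like cells, 90.0% to 93.55% of the members tested lay within 0.25 of 0 on the log2 scale, against 78.84% to 83.69% of all genes, and the median standard error of a member was 0.07 to 0.10. In neuronal-like cells these shares were 77.42% of members and 74.45% of all genes, and in cardiac muscle-like cells 66.67% and 68.12%, with median standard errors of 0.15 and 0.17.

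**Figure D4:**
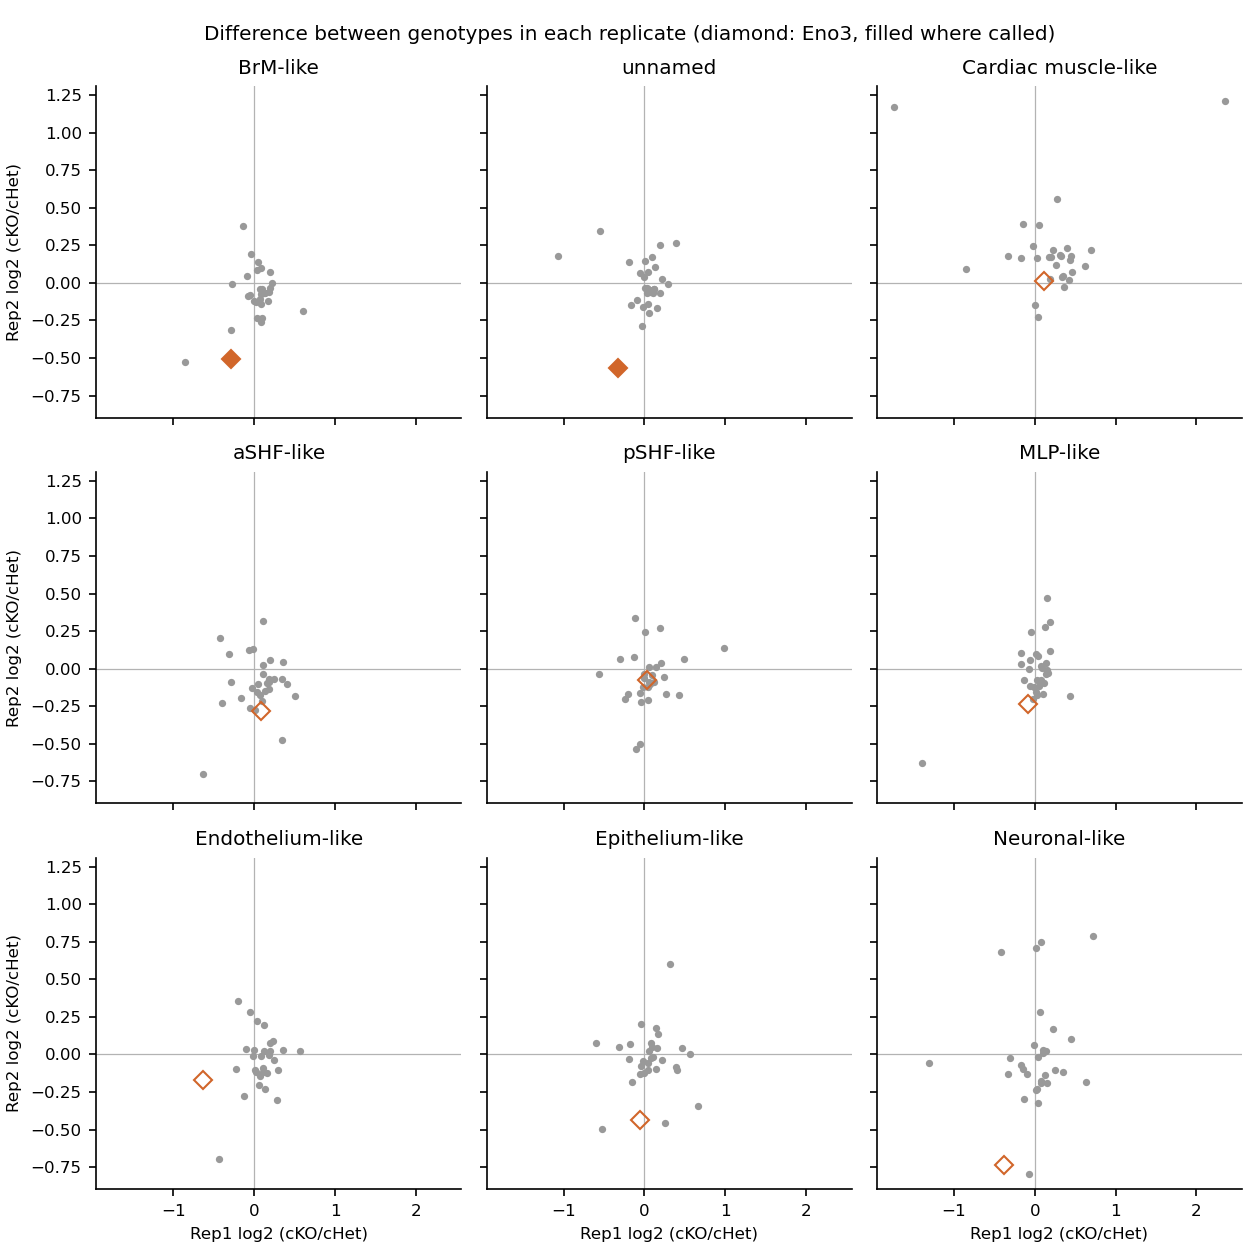
Log2 fold change of cKO over cHet for each member tested in the 8 named types and the unnamed cells, within Rep1 (horizontal axis) and within Rep2 (vertical axis), with Eno3 as a diamond, filled where called. Eno3 is below 0 in both replicates in BrM-like cells (-0.29 and -0.51) and in the unnamed cells (-0.33 and -0.56).

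Eno3 in BrM-like cells was measured at 90.3, 72.9, 86.1 and 59.4 CPM. Both cKO libraries were below both cHet libraries, and the difference was -0.41 on the log2 scale (SE 0.08, edgeR adjusted p = 0.00413), with -0.29 within Rep1 and -0.51 within Rep2. In the unnamed cells Eno3 was at 53.3, 42.3, 47.2 and 31.5 CPM. Here too both cKO libraries were below both cHet libraries, and the difference was -0.45 (SE 0.06, edgeR adjusted p = 0.0247), with -0.33 and -0.56 within the replicates. The fit without the replicate block did not call Eno3 in either, with the same direction (-0.38 and -0.42), and neither did the fits that left out a library, which cannot hold the block and gave -0.72 without cKO Rep1, -0.57 without cHet Rep2, -0.16 without cHet Rep1 and -0.10 without cKO Rep2 in BrM-like cells. In the unnamed cells these were -0.82, -0.65, -0.16 and -0.12. DESeq2 did not call it in BrM-like cells (-0.39, adjusted p = 0.670), and a minimum of 1000 genes per cell gave an adjusted p of 0.103 there. In the unnamed cells Eno3 was just short of a call with members allowed in clustering (edgeR adjusted p = 0.0508).

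Other types gave the same sign for Eno3 without passing the test. The log2 differences were -0.54 in neuronal-like cells (SE 0.14, edgeR adjusted p = 0.3495), -0.40 in endothelium-like cells (SE 0.18, adjusted p = 0.9998), -0.25 in epithelium-like cells (SE 0.10, adjusted p = 0.9998) and -0.16 in MLP-like cells (SE 0.07, adjusted p = 0.509), and each was below 0 within both replicates. They were -0.10 in aSHF-like cells (SE 0.09), -0.03 in pSHF-like cells (SE 0.08) and 0.06 in cardiac muscle-like cells (SE 0.15), where the replicates differed in sign for the first pair. Over all kept cells, which also moves with the mix of types, Eno3 was at 71.6, 55.7, 66.2 and 49.8 CPM (-0.36, SE 0.06, edgeR adjusted p = 0.338). A test of whether the genotype difference itself varied between the 8 types called 0 of 32 members and 0.32% of all genes. At an unadjusted p under 0.05 there were 7 members and 6.38% of all genes, led by Eno3 (edgeR adjusted p = 0.114), and no other tool was run for this test. The result for Eno3 moved with the settings, with an edgeR adjusted p of 0.000136 with no filter on low counts, 0.135 with library total scaling and 1.0 with cells thinned to 5000 UMIs. With no filter Aldoa, Ldha and Tpi1 were called too, and Aldoa was the only member called with thinned cells (adjusted p = 0.0476).

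**Figure D5:**
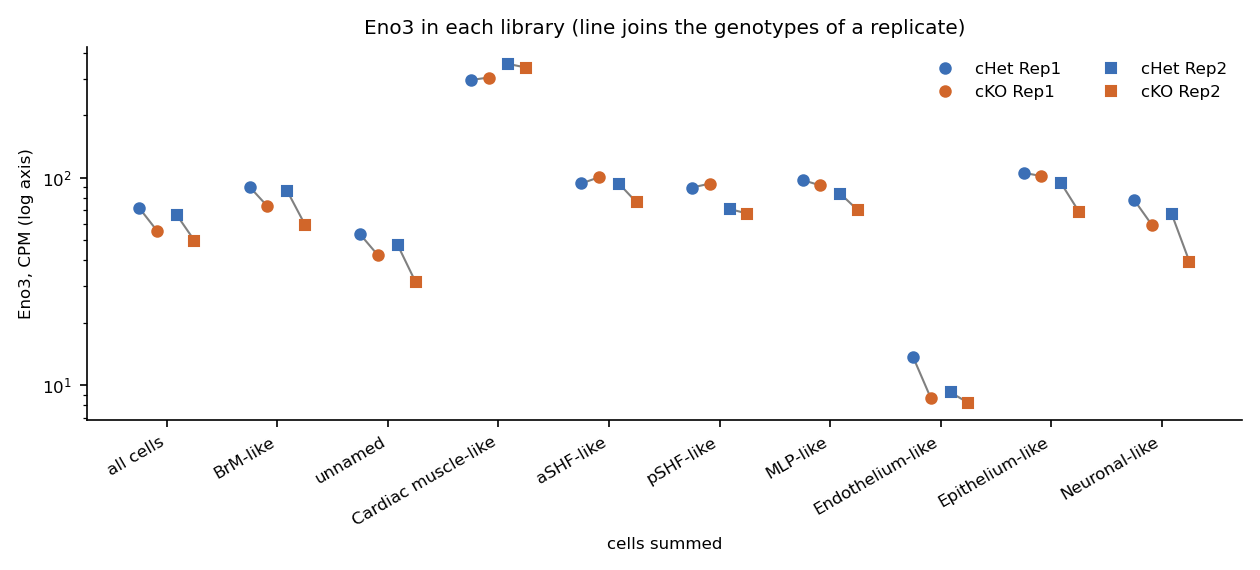
Eno3 in CPM (log axis) in each library (points, joined within a replicate from cHet to cKO) for all kept cells, the unnamed cells and the 8 named types. The cardiac muscle-like values are far above the rest and endothelium-like values far below. In BrM-like and unnamed cells both cKO libraries lie below both cHet libraries.

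The lower Eno3 was also seen within clusters, an alternative added after the data were seen. Both BrM-like clusters were lower in cKO in both replicates, with log2 ratios of -0.14 and -0.47 in the larger and -0.64 and -0.93 in the smaller. Of the 11 unnamed clusters with at least 20 cells in every library, 9 were lower in both replicates and 0 were higher in both. The clusters are parts of the same summed cells and so are not replicates, and such counts were not made for other genes. In BrM-like cells other genes moved with Eno3. Among the BrM marker genes, Msc (58.3, 72.7, 69.7 and 101 CPM), Lhx2 and Tcf21 rose in cKO (edgeR log2 fold changes 0.46, 0.30 and 0.34, adjusted p = 0.00142, 0.0298 and 0.0235), while Myf5 (0.35, edgeR adjusted p = 0.142) and Myod1 (0.09, adjusted p = 0.999) did not pass. The embryonic globins Hba-x (2.64, 12.3, 0.359 and 1.96 CPM) and Hbb-y (3.82, 11.7, 0.439 and 2.59 CPM), which mark red cell RNA, also rose (log2 2.30 and 1.94, edgeR adjusted p = 4.81e-06 and 3.16e-05). The 8 red cell genes summed to 12.8, 31.0, 2.36 and 8.01 CPM there, with 2 of the 8 at 0 in all libraries. The 10 immediate early genes, which respond to cell dissociation, summed to 165.9, 144.1, 214.5 and 185.1 CPM in BrM-like cells, lower in cKO within both replicates, with a median log2 difference of -0.25 and 0 of 9 tested called. The part of these changes in the Eno3 difference was not tested. In the unnamed cells Hba-x was at 3.24, 3.66, 0.453 and 1.73 CPM and Hbb-y at 5.36, 4.55, 0.575 and 2.36 CPM, each higher in cKO in Rep2, and the red cell genes summed to 14.97, 13.5, 2.37 and 6.89 CPM. Neither globin passed the test there (log2 0.89 and 0.67, edgeR adjusted p = 0.451 and 0.715). The immediate early genes summed to 183.5, 166.3, 240.6 and 206.4 CPM in the unnamed cells, again lower in cKO within both replicates, with a median of -0.20. Of these 10 genes 1 was called, Fosb, which fell (0.394, 0.174, 2.96 and 0.311 CPM, log2 -2.60, edgeR adjusted p = 0.0397). The summed immediate early genes were also lower in cKO within both replicates in all other named types except endothelium-like cells. There they were lower in Rep1 and higher in Rep2 (478.1, 455.0, 683.7 and 694.6 CPM).

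In cardiac muscle-like cells, 26 of 30 members tested had a fold change above 0 in cKO, with a median of 0.18 against 0.01 over all genes, but none passed the test and the cKO Rep1 library rested on 31 cells. With library total scaling the medians were 0.11 and -0.06. The sign was the same in both replicates for 21 members. Bnip3, at 138, 160, 225 and 316 CPM, was higher in cKO within each replicate (0.44, SE 0.16, edgeR adjusted p = 0.510), though the groups overlapped. Aldoa, at 1084, 1393, 1107 and 1171 CPM, gave 0.29 (SE 0.12, edgeR adjusted p = 0.748), with the cKO libraries both above the cHet libraries. Eno1, Tpi1, Aldoc and Pgam1 were the other members at an unadjusted p under 0.05 in the edgeR fit of these cells. The log2 fold changes of the members ranged from -0.20 to 1.99. The 17 genes of the tricarboxylic acid cycle had a median of 0.22 in the same cells and the dividing cell genes a median of -0.20, summing to 1445, 1087, 1501 and 1342 CPM, and none of either list was called. The other glucose and pyruvate genes had a median of -0.03, the pentose phosphate genes 0.13, the hypoxia-inducible factor pathway -0.10 and the hypoxia targets 0.27, also with 0 called. The part of cell division in these values was not tested.

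Some further members differed at an unadjusted p under 0.05, and all of these failed the adjustment in the fit described. Hk2 was higher in cKO in MLP-like cells (41.7, 47.2, 28.5 and 34.8 CPM, log2 0.25, SE 0.08, edgeR adjusted p = 0.235) and in pSHF-like cells (0.23, SE 0.09, adjusted p = 0.487), in both replicates of each. Bnip3 was higher in MLP-like cells (0.21, SE 0.07, edgeR adjusted p = 0.196) and in the unnamed cells (0.22, SE 0.05, adjusted p = 0.115), again in both replicates. Pfkp in the unnamed cells was at 4.25, 5.54, 9.02 and 10.7 CPM (log2 0.32, SE 0.08, edgeR adjusted p = 0.215). Without the filter on low counts both were called in the unnamed cells, Bnip3 with an edgeR adjusted p of 0.00872 and Pfkp with 0.0421. Pfkm was lower in endothelium-like cells, at 6.27, 4.54, 7.00 and 4.25 CPM (-0.60, SE 0.23, edgeR adjusted p = 0.9998), and in epithelium-like cells, at 8.48, 5.87, 12.2 and 8.47 CPM (-0.52, SE 0.17, adjusted p = 0.9998). In the other named types, the unnamed cells and all kept cells, Pfkm did not reach an unadjusted p under 0.05 in the edgeR fit. Pfkm lies on chromosome 15, 699218 bases from the floxed Kmt2d gene, and the part of that position in its values was not tested. In endothelium-like cells Slc2a1 was at 115, 168, 305 and 311 CPM (0.27, SE 0.11, edgeR adjusted p = 0.9998), with most of the difference in Rep1 (0.56 against 0.02). It was called there when doublets were kept (adjusted p = 0.00743) or when low counts were not filtered (adjusted p = 0.0414). An endothelium-like cluster led by Gja4, Npr3, Ptprb and Gja5 held 2 of the 276 endothelium-like cells in cKO Rep1 and 73 of 442 in cHet Rep1, and its part in that value was not tested.

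The wider pathway gave no call between genotypes, in comparisons where 0.0% to 1.68% of all genes were called. At such shares, 0 calls in lists this short do not set them apart from all genes. Among 43 other genes of glucose and pyruvate metabolism (29 to 41 tested), 9 of the pentose phosphate route (8 to 9 tested), 17 of the tricarboxylic acid cycle (all tested), 8 of the hypoxia-inducible factor pathway (7 to 8 tested) and 20 hypoxia targets outside the members (15 to 19 tested, with Ero1a not matched by symbol), 0 of those tested were called between cKO and cHet in any type. Between cardiac muscle-like and aSHF-like cells, 15 of 17 tricarboxylic acid cycle genes were higher and 1 lower, with a median log2 difference of 0.88. Of the other glucose and pyruvate genes 18 of 33 were higher and 4 lower, of the hypoxia targets 9 of 17 were higher and 1 lower, and of the hypoxia-inducible factor pathway 3 of 8 were higher and 0 lower. Of the pentose phosphate genes 1 of 9 was higher and 3 lower, with a median of -0.08. Over all genes tested in this pair 27.4% were higher and 26.8% lower, and differences between the lists were not tested. In the pairs against MLP-like cells, 25.5% of all genes were higher and 28.2% lower in epithelium-like cells, 34.6% and 36.4% in endothelium-like cells, and 20.6% and 19.1% in neuronal-like cells. There the tricarboxylic acid cycle genes were 1 higher and 5 lower of 17 in epithelium-like, 10 and 2 in endothelium-like and 2 and 2 in neuronal-like cells. The hypoxia targets were 5 higher and 9 lower of 18, 7 and 10 of 19, and 4 and 5 of 18 in the same order, and the other glucose and pyruvate genes 12 and 10 of 35, 9 and 8 of 33, and 7 and 3 of 33. The pentose phosphate genes were 2 and 2, 4 and 0, and 2 and 3 of 9, and those of the hypoxia-inducible factor pathway 2 and 2, 5 and 2, and 2 and 1 of 8. Of the immediate early genes, Egr1 fell in cKO in MLP-like cells (7.20, 1.31, 1.82 and 1.10 CPM, log2 -1.69, edgeR adjusted p = 0.00122).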

How the data were processed

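The authors sorted GFP-positive cells, made 10x Genomics 3′ libraries, aligned them to mm10 with Cell Ranger (8.0.1 in the submitters' processing notes, 7.0.1 and 8.0.1 in the file headers) and deposited unnormalised UMI counts per gene and barcode. Per the labels, samples were grouped by genotype and replicate, 2 libraries per genotype, each a pool of embryos. The study's workflow removed ambient RNA with SoupX, but the counts used here are those deposited, and no such correction was made here. The members and gene lists were chosen with earlier results of these data known.

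Cells with at least 3000 genes (the study's setting), at most 10% mitochondrial and at most 5% haemoglobin UMIs were kept. Doublets were called at 0.8% (Next GEM) or 0.4% (GEM-X) per 1000 barcodes and removed. Cells were clustered with scanpy 1.11.5 (2000 variable genes, 30 components, 20 neighbours, Leiden resolution 0.8), without 127 pathway genes, and the 30 clusters were named from fixed markers, so types may differ from the study's own.

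UMIs were summed per library and type. edgeR 4.0.16 (TMM, quasi-likelihood test, 2-sided, replicate block for genotype and library block for type pairs) was fitted to all genes that passed its filter, with Benjamini-Hochberg adjustment over all of them and a threshold of 0.05. "Adjusted p" means this throughout, "called" means past it, and SE is the standard error of a log2 fold change. For edgeR the SE was derived from the test, as the absolute log2 fold change divided by the square root of the F statistic. DESeq2 1.42.0 was an alternative. The replicate number pairs the libraries: it marks the kit, and same-numbered libraries deviated together from their group means in every type (correlation 0.615 to 0.85). Embryos were pooled, so p-values rest on the spread between pools that remains after the block, and not on that between embryos. With so few libraries this spread is little measured for a single gene, and edgeR's test also borrows it from the other genes. Fits were tested on simulated data.

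Every library's value is given for members called between genotypes, the 8 with the largest and the 3 with the smallest ratio of highest to lowest mean CPM over types (5 CPM added, at least 10 CPM in a type), and Kmt2d. Some others named were chosen after their values were seen. Gene positions are GENCODE M21 (GRCm38), in which 32235 of 32285 identifiers were found.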

Additional observations from a re-analysis of the deposited data

How the results depend on the processing

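The calls between genotypes were few and moved with the settings. The 2 calls within types (Eno3 in BrM-like and unnamed cells) became 1 with DESeq2 or with 1000 genes per cell, which left that in the unnamed cells. They became 1 with members allowed in clustering, which left that in BrM-like cells. There were 5 with no filter on low counts, and 0 without the replicate block. Leaving out each library gave 0 to 0, in fits without the block in which a lone library is assumed to vary like the others. Over all kept cells 0 members became 1 with DESeq2 and 1 with no filter, and 0 without the replicate block. The test of a genotype effect differing between types went from 0 to 4 with no filter and to 1 with cells thinned to 5000 UMIs. Without a library, Eno3 ranged from -0.10 to -0.72 in BrM-like and from -0.12 to -0.82 in unnamed cells.

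The 13 calls between neuronal-like and MLP-like cells became 6 to 10 without a library, and the 29 between cardiac muscle-like and aSHF-like cells 25 to 29. The count of 24 members highest in cardiac muscle-like cells stayed at 23 to 25 in the settings run for it. Eno1 in endothelium-like against MLP-like cells reversed to -0.094 with library total scaling (adjusted p = 0.0184). Of single-gene values, 566 kept their direction and side of the threshold, 38 lost the call, 8 gained it, 15 moved and 1 reversed. The cause was not tested. Of the types compared, depth was lowest in cardiac muscle-like cells, where cKO Rep1 held 31 cells and 852655 UMIs.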
